A study of Mus musculus with 2 samples.

Results

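Nuclear receptor genes were followed in the liver of mice exposed to gamma irradiation. The 42 genes were taken by name, as members of this family of transcription factors. Of them 40 had a probe set annotated with that symbol alone, out of 22180 such genes on the array, while Nr1h2 and Nr2e3 were not analysed here. For Nr3c2, which had 2 such probe sets, the one with the higher mean was used. The irradiated sample was male C57BL/6 liver after 1 exposure of the whole body, under anesthesia and at an age of 4 weeks, to 6 Gy of gamma rays at 0.81 Gy per minute. It was taken 5 weeks later, at 9 weeks of age. The control sample was male C57BL/6 liver of 9 weeks with no such treatment, and C57BL/6 is an inbred laboratory strain. Each group had 1 array, the labels do not say whether an RNA was pooled from several mice, and they do not say how the control was handled during the exposure. There was no replicate, so no difference below has a replicate check or a test. Fewer cells of a type and less RNA per cell cannot be told apart in whole liver.

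Nuclear receptors share a zinc finger domain that binds DNA and, in most members, a domain that binds a small fat-soluble ligand. Many work as heterodimers with a retinoid X receptor (RXR), and they switch target genes through coactivators and corepressors. In hepatocytes they sense fatty acids, oxysterols, xenobiotics, retinoids, thyroid hormone and steroids. The NR4A receptors differ from most of the family in that their activity is set mainly by how much of them is made, as immediate early genes.

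Values are log2 RMA values of a probe set, and differences are irradiated minus control on the log2 scale. A gene was counted as expressed when its higher value reached 6.06, the median of all deposited values. Of the 40 receptors 36 reached this floor, and 35 did so on both arrays. The tissue label was checked against hepatocyte markers, of which 8 of 9 were measured and all 8 were expressed. Their mean level was 12.29 on the irradiated array and 12.27 on the control array, and the difference of Alb (albumin) was 0.01. Among these 8 markers was Hnf4a, itself a listed receptor.

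Most nuclear receptor genes differed little between the arrays, and the NR4A genes held the 3 highest differences among expressed members. Of the 36 expressed receptors 1, Nr4a1, was at least 1.5-fold higher in irradiated liver, against a background of 1.14% of 13689 expressed genes. None of the 36 was at least 1.5-fold lower, where the background was 0.65%. Nr0b2, a nuclear receptor outside the 42, was 2.24-fold lower. The median difference of the 36 receptors was -0.06, against -0.00 for all expressed genes. Of the 36, 24 (66.7%) were below 0, against 50.3% of expressed genes. At the milder size of 1.2-fold, 2 were higher and 5 lower, against 7.2% and 6.54% of expressed genes. These 7 were Nr4a1 and Nr4a3 on the higher side, and Esrrg, Rxrg, Esrrb, Esr1 and Nr2e1 on the lower side. Esrrb reached the floor on the control array alone, and with values below the floor raised to it the lower ones numbered 4. The median size of the difference, with its sign dropped, was 0.15 among the receptors and 0.11 among expressed genes.

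**Figure D1:**
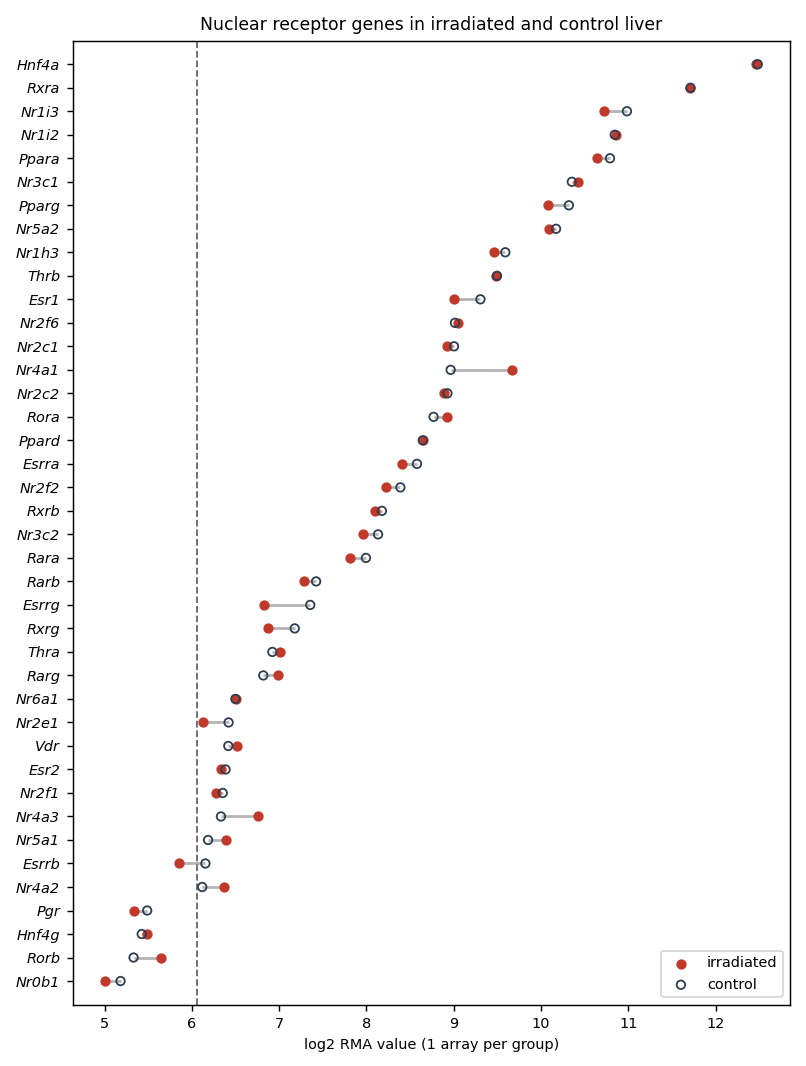
Log2 RMA value of each of the 40 measured nuclear receptor genes on the irradiated array (filled points) and the control array (open points), 1 array each, ordered by the control value, with the expression floor of 6.06 dashed. Nr4a1 and Esrrg have the longest lines between their points, with differences of 0.70 and -0.53, and 4 genes lie below the floor on both arrays.

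The spread of differences depends on level, so each receptor was also set beside expressed genes of like level, in 10 equal classes by the mean of both arrays. Of the 36 receptors 2 (5.56%) lay outside the central 95% of their class, against 5.11% of expressed genes. Those 2 were Nr4a1, whose class ran from -0.34 to 0.31, and Esrrg, whose class ran from -0.35 to 0.55. A larger positive difference than that of Nr4a1 was found for 98 expressed genes, and a lower difference than that of Esrrg for 118.

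**Figure D2:**
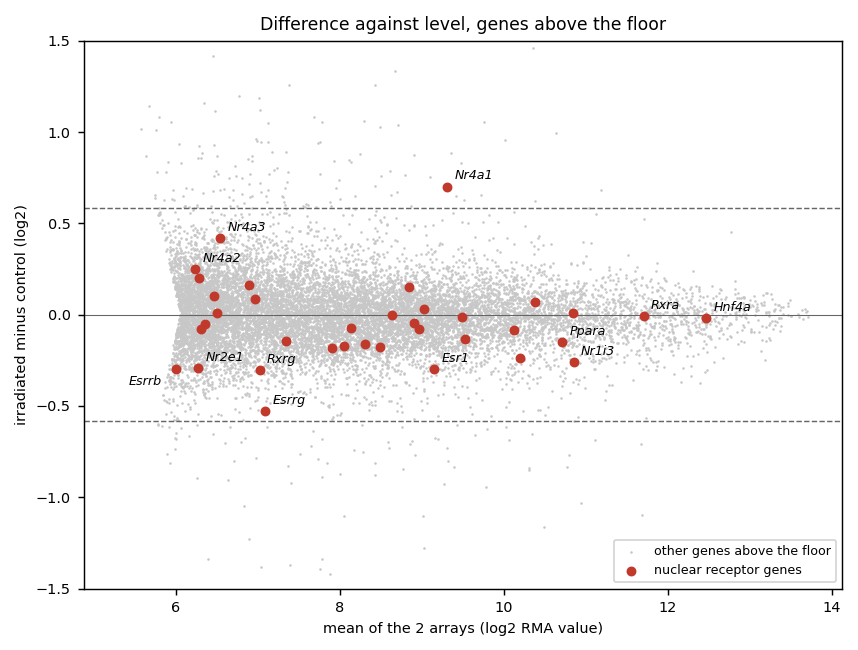
Difference, irradiated minus control, against the mean of both arrays for genes above the floor (grey) and the 36 expressed nuclear receptor genes (red), with lines at 1.5-fold. Nr4a1 is the receptor beyond a line, and 33 genes lie outside the plotted range of 1.5 log2 units either way.

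The NR4A receptors held the highest differences among expressed members, and their upstream sequences are shown for that reason. Of these receptors Nr4a1 alone lay outside the central 95% of its level class. They are the 250 bases before the annotated start of each gene, from RefSeq on GRCm38.p6, 5′ to 3′ on the strand of the gene. Nr4a1 lies at chr15:101266596-101266845 on the plus strand, Nr4a2 at chr2:57124004-57124253 on the minus strand and Nr4a3 at chr4:48045055-48045304 on the plus strand. Capitals mark CGTCA or its reverse complement TGACG, the core of the cAMP response element (CRE), which is known to drive NR4A genes after cAMP signals.
Nr4a1: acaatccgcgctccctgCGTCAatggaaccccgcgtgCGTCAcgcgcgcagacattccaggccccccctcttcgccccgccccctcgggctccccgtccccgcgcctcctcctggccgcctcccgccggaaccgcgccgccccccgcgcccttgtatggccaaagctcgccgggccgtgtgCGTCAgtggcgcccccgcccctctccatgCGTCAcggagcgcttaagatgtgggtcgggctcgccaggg
Nr4a2: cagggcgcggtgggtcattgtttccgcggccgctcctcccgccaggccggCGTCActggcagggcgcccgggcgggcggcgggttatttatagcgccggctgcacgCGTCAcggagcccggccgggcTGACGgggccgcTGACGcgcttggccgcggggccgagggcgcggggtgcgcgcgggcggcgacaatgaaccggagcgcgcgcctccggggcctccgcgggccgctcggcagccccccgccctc
Nr4a3: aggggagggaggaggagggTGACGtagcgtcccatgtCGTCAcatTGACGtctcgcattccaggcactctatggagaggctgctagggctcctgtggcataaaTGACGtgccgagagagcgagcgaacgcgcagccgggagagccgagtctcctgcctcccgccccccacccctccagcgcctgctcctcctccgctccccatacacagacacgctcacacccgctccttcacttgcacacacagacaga

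Each of these 3 windows held the core 4 times. In Nr4a1 all 4 copies read CGTCA within the longer word TGCGTCA, the first at 233 and the last at 40 bases before the start. Nr4a2 had 2 copies in each orientation, and Nr4a3 had 1 copy of CGTCA and 3 of TGACG. Of 32851 mouse promoter windows of the same length 17.8% held at least 1 copy on either strand and 0.137% held at least 4. Among the 38 receptors with a promoter entry, 59 windows in all, at least 4 copies were found in 3 windows, those of Nr4a1, Nr4a2 and Nr4a3. Next came a window of Nr2e1 with 3 copies and a window of Esrrb with 2. These genes were lower on the irradiated array, with differences of -0.29 and -0.30. Both lay close to the floor and inside the central range of their level classes. Esrrb reached the floor on the control array alone, and its difference was -0.10 with the irradiated value raised to it. The motif was chosen after these windows had been read, and a match describes letters and is not evidence of binding.

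Nr4a1, an orphan receptor that hormones and stress induce within minutes to hours, read 9.67 in irradiated liver, against 8.96 in control liver. The difference was 0.70, or 1.63-fold. Nr4a3, its close relative, read 6.75 in irradiated liver, against 6.33 in control liver, a difference of 0.42 and 1.34-fold. Nr4a2, known in mice for its part in the making of dopamine neurons, read 6.37 in irradiated liver, against 6.12 in control liver, a difference of 0.25. All 3 were higher on the irradiated array, and Nr4a2 and Nr4a3 lay close to the floor, where Nr4a3 stayed inside the central range of its class (-0.36 to 0.49) and Nr4a2 inside its own (-0.46 to 0.55).

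Other immediate early genes were listed beside them as genes induced by the same kinds of signal. All 12 were expressed and above 0, with a median difference of 0.30, and 3 were at least 1.5-fold higher. Of all expressed genes 1.14% were higher by as much, and 50.3% were below 0. Higher values of several of the 12 were known when the list was drawn up. Fosb, another AP-1 subunit gene, passed the floor through the irradiated array alone, at 6.13 in irradiated liver and 5.83 in control liver, and with values below the floor raised to it the median was 0.25. Egr1, a zinc finger transcription factor, read 9.61 in irradiated liver, against 7.34 in control liver. Fos, a subunit of the AP-1 transcription factor, read 7.83 in irradiated liver, against 6.33 in control liver. Atf3, a stress-induced factor of the ATF and CREB family, read 9.01 in irradiated liver, against 7.98 in control liver. Markers of other tissues and cells were also higher on the same array. Smooth muscle markers had 6 of 6 above 0, with a mean level of 8.39 on the irradiated array and 7.19 on the control array, led by Cnn1 (2.42) and Acta2 (1.97). Bile duct markers had 5 of 5 expressed members above 0, with a mean level of 7.56 on the irradiated array and 6.55 on the control array, led by Muc1 (2.62) and Krt19, which read 7.37 on the irradiated array and 6.18 on the control array. Exocrine pancreas markers had 2 of 3 expressed members above 0, with a mean level of 8.25 on the irradiated array and 6.10 on the control array. The median of this list was 2.65 over these 3 genes and 0.02 over all 5 measured ones. Those above 0 were Ctrb1 (2.65) and Reg1 (3.83), which was below the floor in the control, and the elastase gene Cela1 differed by -0.02. Cftr and Cldn7 of the bile duct and Prss2 and Cpa1 of the pancreas were below the floor on both arrays. Among other cell types, liver macrophage markers had 7 of 8 above 0 and a median difference of 0.16, with none past 1.5-fold. Stellate cell markers had a median of 0.01 over 7 genes. Among them Des (0.95), which was also counted in the smooth muscle list, was past 1.5-fold. Lymphocyte markers had a median of 0.04 over 4 expressed genes, with none past 1.5-fold. The part of these tissues and cells in the NR4A values was not tested.

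The highest receptor signals in control liver came from Hnf4a and Rxra. A probe set's signal depends on its probes as well as on the transcript, so the order of levels is an order of array signal, and no spread was available to separate neighbours. Hnf4a, the master regulator of hepatocyte identity, ranked first and read 12.46 in irradiated liver, against 12.48 in control liver. Rxra, the main RXR of liver, ranked next and read 11.71 on both arrays. The differences of this pair were -0.02 and -0.01. Targets of HNF4A had a median difference of -0.03 over 14 expressed genes, 9 of them below 0 and none past 1.5-fold. The largest were Cyp8b1, the sterol hydroxylase that sets the cholic acid share of bile (-0.38), and the glucose transporter gene Slc2a2 (-0.20).

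Of the other HNF4, NR5A and NR6A receptors, Nr5a2 (LRH-1), an activator of bile acid synthesis genes, read 10.09 in irradiated liver, against 10.17 in control liver. Nr5a1 (SF-1), which drives steroid synthesis in adrenal and gonad, lay near the floor and read 6.39 in irradiated liver, against 6.19 in control liver. Nr6a1, the germ cell nuclear factor, read 6.51 in irradiated liver, against 6.50 in control liver. Hnf4g, a relative of Hnf4a prominent in the intestine, was below the floor, at 5.49 in irradiated liver and 5.43 in control liver.

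The xenobiotic sensors ranked between Rxra and Ppara and did not differ alike. Nr1i3, which encodes the constitutive androstane receptor (CAR), an inducer of drug-metabolizing enzymes, read 10.72 in irradiated liver, against 10.98 in control liver, a difference of -0.26. Nr1i2, which encodes the pregnane X receptor (PXR), read 10.85 in irradiated liver, against 10.84 in control liver. The difference of Nr1i3 lay inside the range of its level class, -0.32 to 0.21. Genes known as CAR or PXR targets had a median difference of 0.01 over 16 expressed genes, with 9 above 0 and 7 below. Of the 16, 1 was at least 1.5-fold lower, against 0.65% of expressed genes. It was the organic anion transporter gene Slco1a4, which read 9.32 in irradiated liver, against 9.98 in control liver. The CAR-inducible P450 gene Cyp2b10 differed by -0.45, short of 1.5-fold but outside its level class range of -0.36 to 0.42. The PXR-inducible Cyp3a11 differed by 0.04. The 2 probe sets of Cyp2c55 read 8.63 and 9.04 in irradiated liver, against 9.21 and 9.19 in control liver, and so disagreed, with differences of -0.58 and -0.15.

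Of the 4 measured lipid sensors 3 were below 0 by small amounts, and Ppard differed by -0.00. Ppara, the fasting regulator of fatty acid oxidation, read 10.64 in irradiated liver, against 10.79 in control liver, a difference of -0.15. Pparg, the adipocyte regulator, read 10.08 in irradiated liver, against 10.32 in control liver, a difference of -0.24. Nr1h3 (LXR alpha), the oxysterol sensor, read 9.46 in irradiated liver, against 9.59 in control liver. Ppard, a fatty acid sensor found in most tissues, read 8.64 in irradiated liver, against 8.65 in control liver, and its sign turned positive under quantile normalization and loess (0.01 in each). A probe set shared by Ppard and another annotation read 6.73 in irradiated liver, against 6.62 in control liver.

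Known targets of these sensors were mostly below 0, against 50.3% of all expressed genes. Many of them lay in the highest level class, whose central 95% ran from -0.32 to 0.21. Of 21 expressed PPARalpha targets 16 were below 0, with a median difference of -0.12. Of these targets 2 were at least 1.5-fold lower, against 0.65% of expressed genes. Angptl4, an inhibitor of lipoprotein lipase, read 8.92 in irradiated liver, against 9.73 in control liver. Vnn1, a pantetheinase, read 9.49 in irradiated liver, against 10.11 in control liver. Of 13 expressed LXR targets 10 were below 0, with a median of -0.09 and none past 1.5-fold. The largest were the sterol exporter gene Abcg8 (-0.48) and the phospholipid transfer protein gene Pltp (-0.28). Below the central 95% of their own level classes lay Angptl4, Vnn1, Cyp4a14, Plin2, Acot2 and Ehhadh of the PPARalpha targets. Among the LXR targets Abcg8 did so, and Pltp did not. No gene of either list lay above its range, and 5.11% of expressed genes lay outside theirs in either direction. The list of PPARalpha targets overlaps fatty acid oxidation genes whose lower values on this array were known when it was drawn up.

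**Figure D3:**
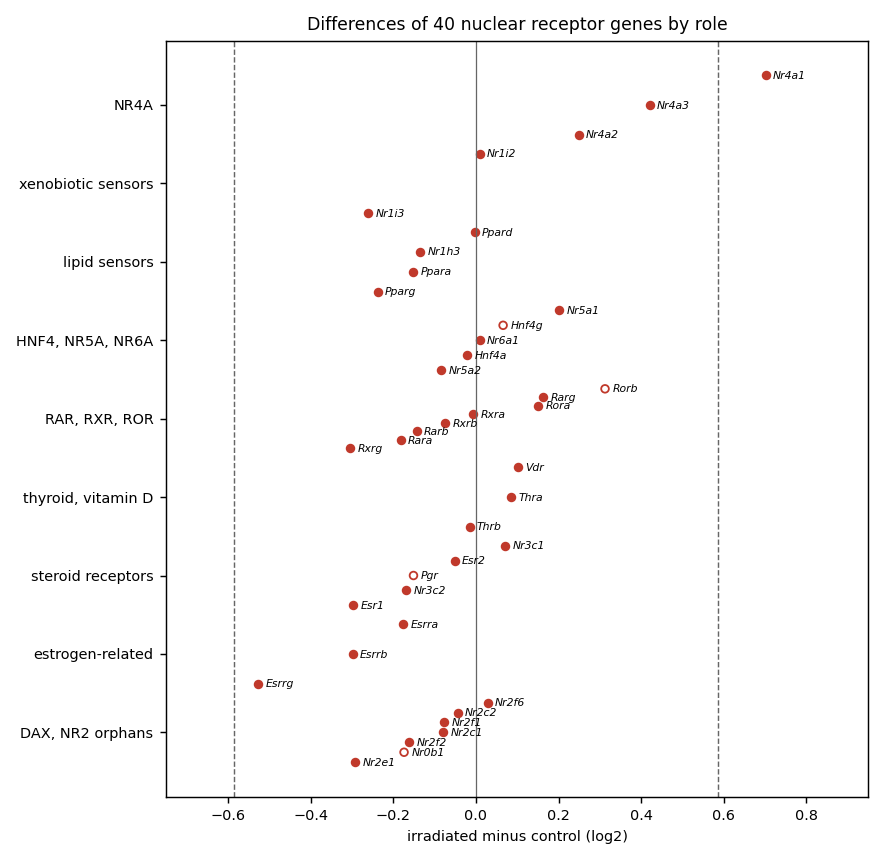
Difference, irradiated minus control, of the 40 measured nuclear receptor genes grouped by role, with open points for the 4 genes below the floor on both arrays and dashed lines at 1.5-fold. The NR4A genes are all to the right of 0 (0.25 to 0.70), and the estrogen-related receptors all to the left (-0.53 to -0.18).

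The estrogen-related receptors, which drive mitochondrial genes together with PGC-1 coactivators, were all lower on the irradiated array. Esrrg read 6.83 in irradiated liver, against 7.36 in control liver, a difference of -0.53 that made it 1.44-fold lower. Esrra, the most abundant of them by signal, read 8.40 in irradiated liver, against 8.58 in control liver. Esrrb, a regulator of embryonic stem cells in mice, read 5.86 in irradiated liver, below the floor, against 6.15 in control liver. Its difference was -0.30, and -0.10 once the irradiated value was raised to the floor. Known targets of these receptors had a median difference of -0.03 over 8 expressed genes, none past 1.5-fold. Pdk4, the kinase that shuts off pyruvate dehydrogenase, differed by 0.21, and Idh3a, a citric acid cycle enzyme gene, by -0.18.

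Among the steroid receptors, Esr1, the estrogen receptor of hepatocytes, was the lowest in difference. It read 9.01 in irradiated liver, against 9.31 in control liver, a difference of -0.30 that lay inside its class range of -0.34 to 0.31. Esr2, the second estrogen receptor, read 6.34 in irradiated liver, against 6.39 in control liver. Nr3c1, the glucocorticoid receptor, read 10.42 in irradiated liver, against 10.35 in control liver. Nr3c2, the mineralocorticoid receptor, read 7.96 in irradiated liver, against 8.13 in control liver, and its other probe set was below the floor, at 4.80 in irradiated liver and 4.86 in control liver. A probe set shared by Nr3c2 and another annotation read 6.57 in irradiated liver, against 6.77 in control liver, so that all 3 were lower by 0.06 to 0.19. Pgr, the progesterone receptor, was below the floor, at 5.34 in irradiated liver and 5.49 in control liver.

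Glucocorticoid receptor targets had a median difference of 0.09 over 15 expressed genes, with 11 above 0 and none past 1.5-fold. Mt2, a metal-binding protein gene, read 8.83 in irradiated liver, against 8.33 in control liver. Igfbp1, a secreted binder of insulin-like growth factors, read 10.38 in irradiated liver, against 10.80 in control liver. These 2 went opposite ways, and the gluconeogenic gene Pck1 (0.06) and Tat, which encodes tyrosine aminotransferase (0.05), were near 0.

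The retinoid receptors held both directions. Rara, the retinoic acid receptor of most tissues, read 7.81 in irradiated liver, against 7.99 in control liver, and Rarb, itself induced by retinoic acid, read 7.28 in irradiated liver, against 7.42 in control liver. Rarg, the form best known from skin and cartilage, read 6.98 in irradiated liver, against 6.82 in control liver. Rxrb, a widely expressed RXR, read 8.10 in irradiated liver, against 8.18 in control liver. Rxrg, the RXR of muscle and brain, read 6.87 in irradiated liver, against 7.18 in control liver, a difference of -0.30. Rora, a clock-linked receptor named after the retinoid receptors, read 8.92 in irradiated liver, against 8.77 in control liver. Rorb, its relative of brain and retina, was below the floor, at 5.64 in irradiated liver and 5.33 in control liver.

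The target list of retinoic acid receptors turned on 2 enzymes that break down retinoic acid. Cyp26a1, whose gene retinoic acid induces, read 9.32 in irradiated liver, against 10.26 in control liver, a difference of -0.94 that made it 1.92-fold lower. Cyp26b1, which does the same work, read 7.89 in irradiated liver, against 7.38 in control liver, a difference of 0.51. The pair therefore went opposite ways, each outside the central range of its level class. The 7 expressed targets had a median of -0.03, with 3 above 0 and 4 below, and the median was 0.18 with the floor at the 75th percentile of all values. The median of -0.03 was the difference of Stra6, which reached the floor on the control array alone. With its irradiated value raised to the floor, Stra6 differed by -0.02. Rarb, itself a listed receptor, was also counted among these targets. Lrat, which stores retinol as esters and marks stellate cells, differed by 0.18. Among all 13 expressed genes of ligand supply and removal, Cyp26a1 was the one past 1.5-fold, and the median was 0.01. Lower by as much were 0.65% of all expressed genes. Rbp4, the retinol carrier of blood, differed by 0.04 and Hsd11b1, which makes active glucocorticoid, by -0.19.

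The thyroid hormone and vitamin D receptors were near 0. Thrb, the main thyroid hormone receptor of hepatocytes, read 9.48 in irradiated liver, against 9.50 in control liver. Thra, the form prominent in heart and bone, read 7.01 in irradiated liver, against 6.92 in control liver. Vdr, the vitamin D receptor, low in hepatocytes, read 6.52 in irradiated liver, against 6.42 in control liver. Thyroid hormone targets had a median of -0.04 over 7 expressed genes and none past 1.5-fold, with Serpina7, the thyroxine-binding globulin gene, at -0.37 and Hr, a corepressor gene, at 0.22. Hr was below the floor in control liver, and its difference was 0.08 with that value raised to the floor.

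Of the 6 expressed NR2 orphan receptors 5 were below 0. Nr2f6, a COUP-related repressor, read 9.04 in irradiated liver, against 9.01 in control liver. The testicular receptors Nr2c1 and Nr2c2, which repress or activate direct-repeat sites, differed by -0.08 and -0.04, with Nr2c1 at 8.92 in irradiated liver and 9.00 in control liver, and Nr2c2 at 8.88 in irradiated liver and 8.93 in control liver. Nr2f2 (COUP-TFII), a factor of vein and lymphatic endothelium, read 8.23 in irradiated liver, against 8.39 in control liver. Its relative Nr2f1 (COUP-TFI) read 6.28 in irradiated liver, against 6.35 in control liver. The list of 8 liver endothelial markers had 5 below 0, with a median of -0.08 and a mean level of 9.92 on the irradiated array and 9.95 on the control array, and its part in the Nr2f2 value was not tested. Nr2e1, a neural stem cell repressor, read 6.13 in irradiated liver, against 6.42 in control liver. Nr0b1 (DAX-1), a repressor of adrenal development genes, was below the floor, at 5.01 in irradiated liver and 5.18 in control liver.

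Nuclear receptors left out of the 42 were listed for context, and 5 of 7 were measured. All 5 were below 0. Nr0b2 (SHP), the bile acid-induced repressor, read 9.91 in irradiated liver, against 11.07 in control liver, a difference of -1.16, while its inducer Nr1h4 (FXR), the bile acid sensor, read 10.54 on both arrays. Nr1d1, the clock repressor REV-ERB alpha, read 9.34 in irradiated liver, against 9.88 in control liver, a difference of -0.54 that stopped short of 1.5-fold.

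Cofactors were all short of 1.5-fold. All 19 listed coactivators were expressed, with a median of 0.08 and 13 above 0. Pprc1, a relative of PGC-1 alpha, had the largest difference (-0.42), followed by Ncoa5 (0.26). The metabolic coactivators Ppargc1a and Ppargc1b differed by -0.12 and -0.15. The 7 measured corepressors had a median of -0.03, with Nrip1, a ligand-dependent corepressor gene, at 0.14 and Gps2, a subunit of a corepressor complex, at -0.14. Over all pathway lists, 144 distinct genes were expressed, 3 of them higher by 1.5-fold or more and 5 lower by as much. The shares over all expressed genes were 1.14% and 0.65%. The 3 higher genes were Egr1, Fos and Atf3 of the immediate early list, and the lower ones included Angptl4 and Vnn1 of the PPARalpha list. The direction of genes in both lists was known when they were drawn up.

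**Figure D4:**
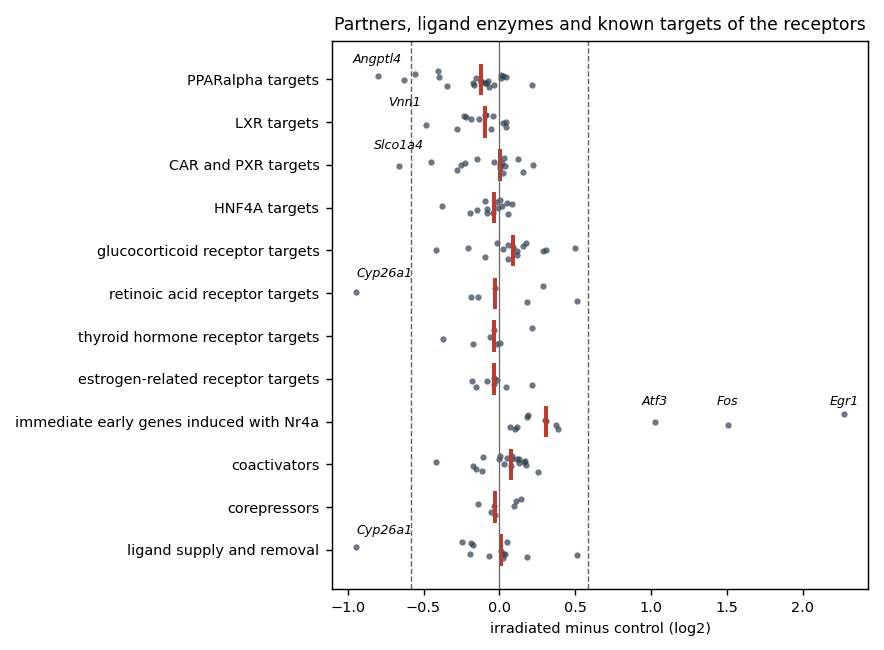
Difference, irradiated minus control, of expressed genes in 12 lists of receptor targets, cofactors and ligand enzymes, with each list's median as a red bar and dashed lines at 1.5-fold. The plotted medians run from -0.12 for the PPARalpha targets to 0.30 for the immediate early genes, and the direction of genes in both of these lists was known when they were drawn up.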

How the data were processed

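RNA of 1 irradiated and 1 control mouse liver sample was measured on Affymetrix whole-transcript arrays from 300 ng of total RNA, per the labels' protocols. The authors deposited log2 values of 41345 probe sets, made with RMA in Affymetrix Expression Console 1.3.1 per the submitters' processing notes. RMA scales the arrays to each other, so a change in total RNA per cell cannot be seen. The log base was read from the values, which ran from 1.47 to 13.9 on the irradiated array and from 1.46 to 13.9 on the control array. The number of arrays limits the precision.

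Genes were named from GEO's platform annotation, which can be old, using the 23521 probe sets with 1 symbol (1814 had several and 16010 none) and, per gene, the one with the highest mean. The annotation's Entrez identifiers were matched to RefSeq GRCm38.p6 for chromosomes. The difference was irradiated minus control, with a floor at the median of all values and a size of 1.5-fold. No p-value was computed. Named were all expressed members, and up to 4 members of each pathway list past 1.5-fold or, failing that, the 2 with the largest differences, and up to 2 members of each marker list past 1.5-fold. A few further list genes near 0 or short of 1.5-fold were named after their values were seen. The members and lists were chosen with earlier results of these data known. Alternatives changed the floor, the probe set rule, the scaling, an offset and the fold. The code was checked on simulated arrays with planted differences and small added noise, which does not measure the precision of the real arrays. Python 3.11.15 and pandas 2.3.3 were used, and loess came from statsmodels 0.14.6.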

Additional observations from a re-analysis of the deposited data

How the results depend on the processing

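No paired analysis was possible because there was only 1 array for irradiated and 1 for control liver. Under 7 alternatives, which changed the floor, the probe set rule, the scaling, an offset of 32 and the treatment of values below the floor, Nr4a1 was the 1 receptor past 1.5-fold, and its difference ran from 0.67 to 0.72. The difference of Esrrg ran from -0.54 to -0.43, that of Nr4a3 from 0.31 to 0.42 and that of Nr4a2 from 0.17 to 0.25. At 2-fold 0 receptors were higher, and at 1.2-fold 2 were higher and 5 lower, or 2 and 4 with values below the floor also raised to it, which was added after seeing the data. The median of the receptors stayed within 0.1 of its value, and was -0.08 without the 3 Nr4a genes, an alternative chosen after seeing the data. Signs changed under some alternative for 4 of 36 receptors (Nr6a1, Ppard, Rxra and Thrb), whose differences were at most 0.015 in size. With the floor at the 75th percentile, 22 receptors were expressed and the median of retinoic acid receptor targets became 0.18, since fewer genes were kept. Reruns of the same 2 arrays do not measure the spread between animals.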
